A study of Mus musculus with 5 samples.

Results

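A set of 33 genes that build, maintain or switch on the epithelial state was followed in mouse embryonic stem cells with and without a Trip12 mutation. The list holds adherens, tight junction, polarity and desmosome genes, membrane serine proteases and their inhibitors, epithelial splicing and transcription regulators, and a pair of trafficking genes. Each gene was represented by a probe set that was selected on measured values, namely the one with the highest mean over the 5 arrays among those annotated to that symbol alone. All 33 genes had such a probe set, of 18193 genes measured. The genes were listed with earlier results of these arrays known, in which Cldn7 and Esrp1 had already stood among the largest decreases, so the values below describe the list and are no independent support for it.

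RNA of E14 embryonic stem cells was hybridised to Affymetrix arrays, with 2 samples labelled wild type (WT) and 3 labelled homozygous mutant (Trip12 mut/mut). Both groups grew on mouse embryo fibroblast feeder cells, in medium with serum replacement, a little fetal bovine serum and leukaemia inhibitory factor (LIF), which holds mouse stem cells in self-renewal. Trip12 is a HECT-type E3 ubiquitin ligase. Nothing in the labels describes the mutation, the number of clones behind it or any removal of feeder cells before extraction. Each sample is named a biological replicate, but nothing says that they came from separate cultures, so the p-values measure only the spread between these arrays. Values are on the log2 scale, made by RMA, which corrects background, normalises between arrays and summarises the probes of each probe set.

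Epithelial cells are held together by adherens junctions, in which the cadherin Cdh1 binds its like on the next cell, by tight junctions, in which claudins and occludin seal the space between cells, and by desmosomes, which tie cells to one another through keratin filaments. Polarity complexes place these junctions near the apical surface. Embryonic stem cells and the early epiblast are themselves epithelial in this sense, and loss of Cdh1 together with a gain of mesenchymal factors marks the epithelial to mesenchymal transition of gastrulation. The splicing regulators Esrp1 and Esrp2 and the transcription factors Grhl2 and Ovol1 maintain the epithelial programme, while Zeb and Snail factors repress it through E-box sequences.

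The array labelled Trip12 mut/mut replicate 1 stood with the WT arrays. It differed from either WT array by more than 2-fold at 0 of 45037 probe sets, whereas replicates 2 and 3 differed from a WT array at 293 to 545 probe sets and from each other at 9. The brightest Trip12 probe set was at 0.983-fold of the WT mean on that array, and at 3.69-fold and 5.13-fold on replicates 2 and 3. With the mutated site unknown here, this probe set does not check the mutation itself. The dimmer Trip12 probe sets were not all alike: replicates 2 and 3 were at 2.17-fold each on 1 that averaged 8.01 in WT, but at 0.751-fold and 0.551-fold on another that averaged 6.10. The array goes against its label in these values, so the differences of members are given with and without it. Embryonic stem cell markers were present throughout, with Pou5f1 between 12.25 and 12.48 on all 5 arrays. In bulk RNA, fewer cells of a type and less RNA per cell cannot be told apart.

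On replicates 2 and 3 most of the epithelial genes were below WT. The mean over the 33 genes was 8.19 on both WT arrays, 8.16 on the array labelled replicate 1, 7.57 on replicate 2 and 7.48 on replicate 3. Both of the last arrays lay below both WT arrays for 24 of 33 genes, against 17.5% of all genes, and above both for 2, against 26.7% of all genes. The other 7 overlapped. Over all 5 arrays 10 of 33 genes had every mutant array below both WT arrays, against 6.29% of all genes, and 0 had every mutant array above, against 5.73%. The median difference over the 33 genes was -0.44 with all 5 arrays and -0.65 without the array labelled replicate 1. All genes had a median of 0.02 in either case.

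None of the differences passed the test over all 5 arrays. In limma 0 of 33 members and 0% of all 18193 genes had a Benjamini-Hochberg adjusted p below 0.05, with 214 genes below an unadjusted 0.05. The 2 members among these, Marveld2 and Tjp3, had an adjusted p of 0.748, which was also the smallest among the members. Leaving out the array labelled replicate 1 also gave 0 genes. There the smallest adjusted p was 0.0785, and 3730 genes were below 0.05 before adjustment. When genes with dim probe sets were removed as well, which left out Cldn1 and Ovol1 and kept 31 members, 12 of the 33 members were called lower and 0 higher. Marveld2 and Marveld3 were kept through the WT arrays alone. Of the 12 called, 11 were above the median of all probe sets on all 4 arrays, with Prss8 as the exception. Prss8 and Tjp3 were above it on only 1 of replicates 2 and 3, too few to be kept without the WT arrays. The call of Prss8 thus depends on a filter that it passed through its high WT values. In that comparison 1.34% of 11626 genes were called lower and 3.29% higher. The array was left out because of its values, so these p-values are too favourable. Members are said below to have fallen only where they passed there, and "adjusted p" without further words is that comparison's. A "5-array difference" keeps the array labelled replicate 1, and for each of the 12 members that fell its adjusted p was 0.748.

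**Figure D1:**
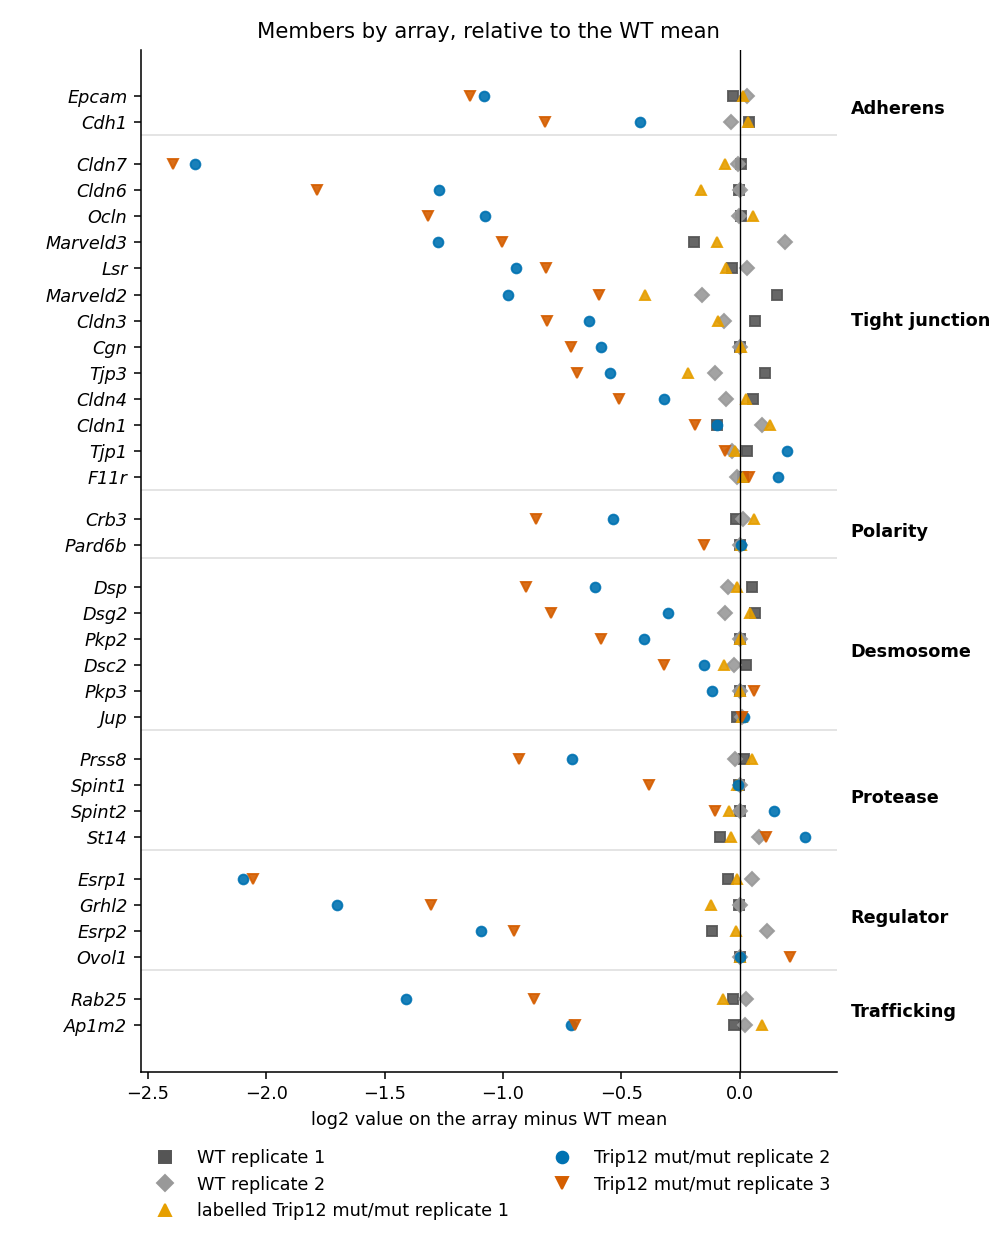
Each point is the log2 value of a member on 1 array minus the mean of the 2 WT arrays, with members grouped by role and sorted by their difference. The array labelled Trip12 mut/mut replicate 1 lies within 0.402 of the WT mean for every member, while replicates 2 and 3 spread to the left as far as -2.40 for Cldn7.

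The promoters of the genes are shown first. The members that were low on replicates 2 and 3 included many with the same short E-box in a window around an annotated start. RefSeq promoter windows (GRCm38.p6) of 300 bases ran from 250 before to 50 after an annotated start. They were found for 21 of 33 members, 15 of them below WT without overlap on replicates 2 and 3. The 12 without a window were Cdh1, Marveld3, Dsg2, Dsc2, Pkp2, Pkp3, Prss8, St14, Esrp1, Esrp2, Grhl2 and Ovol1. The shares below thus cover none of the regulators. A gene with more than 1 annotated start, as 5 of the 21 had, counted as matched if any window matched. The motif searched was CACCTG, the E-box core bound by Zeb and Snail factors, on both strands, where it reads CAGGTG on the other strand. It was found in 16 of 21 members (76.2%) and in 22.6% of all 27025 genes of the table, or 22.1% of its protein-coding genes. At least 2 matches were found in 11 of 21 members (52.4%) and in 3.32% of all genes. Members had a median GC content of 61% in these windows and all genes 52.8%, and the part of base composition in the difference was not tested.

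The 250 bases before the start are printed 5′ to 3′ in the direction of the gene for 5 members with a match and for Tjp1, which has none, with each match in capitals. Epcam lies at chr17:87635729-87635978 (plus strand), Cldn6 at chr17:23679115-23679364 (plus strand), Lsr at chr7:30973470-30973719 (minus strand), Rab25 at chr3:88548280-88548529 (minus strand), Ap1m2 at chr9:21312334-21312583 (minus strand) and Tjp1 at chr7:65371245-65371494 (minus strand).
Epcam: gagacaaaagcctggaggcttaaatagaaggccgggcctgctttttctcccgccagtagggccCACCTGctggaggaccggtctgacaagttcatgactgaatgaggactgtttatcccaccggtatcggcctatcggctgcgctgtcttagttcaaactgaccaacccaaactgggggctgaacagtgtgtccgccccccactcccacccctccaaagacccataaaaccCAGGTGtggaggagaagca
Cldn6: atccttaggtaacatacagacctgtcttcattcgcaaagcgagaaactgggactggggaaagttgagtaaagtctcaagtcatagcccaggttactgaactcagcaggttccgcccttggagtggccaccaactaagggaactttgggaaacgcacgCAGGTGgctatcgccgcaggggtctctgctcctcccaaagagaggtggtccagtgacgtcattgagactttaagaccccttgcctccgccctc
Lsr: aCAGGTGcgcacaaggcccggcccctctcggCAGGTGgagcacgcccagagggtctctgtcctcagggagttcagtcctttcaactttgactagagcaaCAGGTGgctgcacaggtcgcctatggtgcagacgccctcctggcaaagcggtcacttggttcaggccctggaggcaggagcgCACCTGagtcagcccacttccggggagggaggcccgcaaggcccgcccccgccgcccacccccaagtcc
Rab25: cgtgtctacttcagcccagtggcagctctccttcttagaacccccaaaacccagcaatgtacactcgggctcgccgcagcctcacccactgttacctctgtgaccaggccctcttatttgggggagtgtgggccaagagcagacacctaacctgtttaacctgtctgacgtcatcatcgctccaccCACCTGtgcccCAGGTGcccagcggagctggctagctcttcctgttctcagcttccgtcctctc
Ap1m2: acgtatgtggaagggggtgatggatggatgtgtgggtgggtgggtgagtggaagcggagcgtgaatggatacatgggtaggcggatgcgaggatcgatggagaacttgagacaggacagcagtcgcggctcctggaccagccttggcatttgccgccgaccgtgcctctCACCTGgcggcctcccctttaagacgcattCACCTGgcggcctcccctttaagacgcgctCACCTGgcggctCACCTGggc
Tjp1: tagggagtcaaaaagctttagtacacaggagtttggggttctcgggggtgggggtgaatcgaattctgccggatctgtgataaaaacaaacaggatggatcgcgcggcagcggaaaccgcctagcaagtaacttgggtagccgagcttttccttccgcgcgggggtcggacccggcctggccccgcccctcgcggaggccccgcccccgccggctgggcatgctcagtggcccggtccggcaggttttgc

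Ap1m2 and Lsr carried 4 matches each in the printed stretch, Epcam and Rab25 carried 2 each, and Cldn6 carried 1 there and another in the 50 bases after its start. Among the 15 matched members that were below WT on replicates 2 and 3, 13 had a match, with Cgn and Spint1 as the exceptions. For Dsp, Cldn3 and Marveld2, which are among the 13, every match lay after the start. Of the 6 others, F11r, Pard6b and Spint2 had a match and Cldn1, Jup and Tjp1 had none. The motif was thus also present in genes that were not below WT. The Ovol motif CCGTTA was found in 1 of 21 members, Crb3, and in 3.15% of all genes. The Grainyhead-like motif AACCNGTT was found in 2 of 21, Cgn and Rab25, and in 2.35% of all genes, and its full form AACCGGTT, which AACCNGTT includes, in 0 of 21 and 0.174%. A match is only a run of letters, and binding was not measured.

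**Figure D2:**
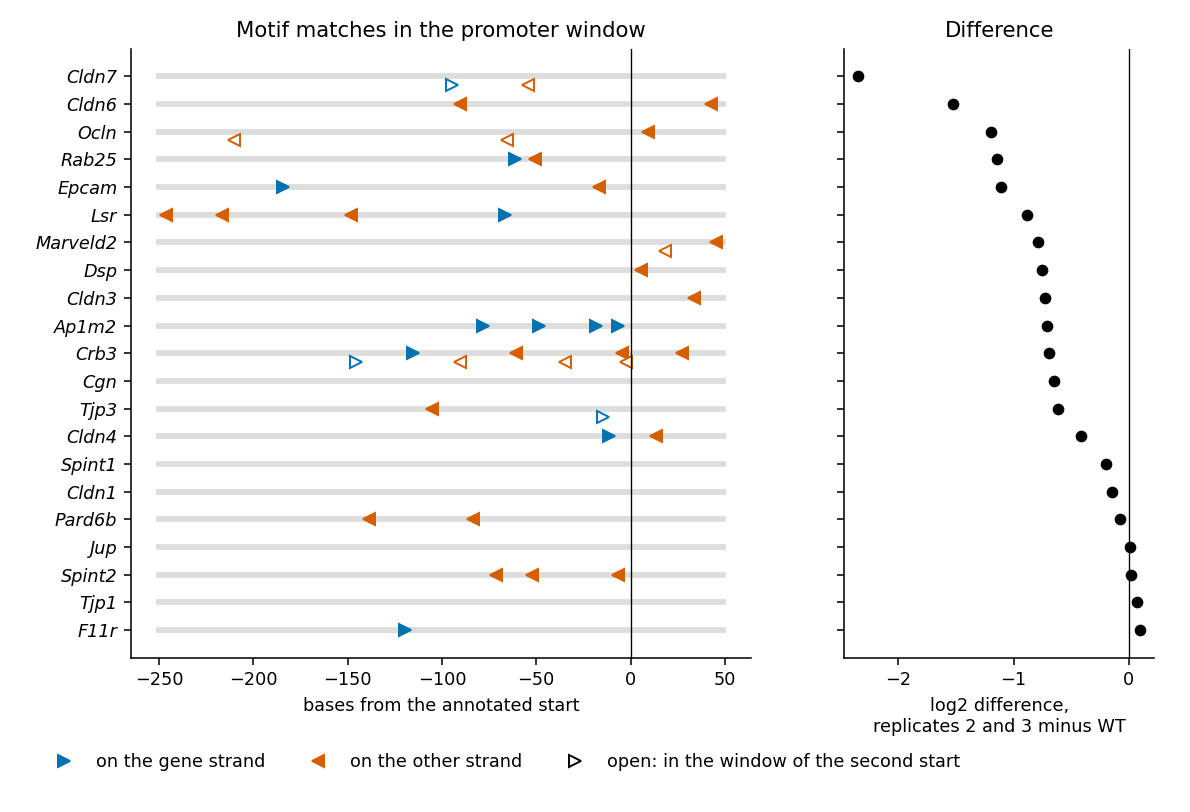
Left, matches to the E-box core within the 300-base promoter windows of 21 members, by distance in bases from the annotated start, with filled symbols for the first window and open ones for the second of the 5 genes with 2 starts. Right, each member's log2 difference of replicates 2 and 3 from WT; genes are sorted by it, and matches occur both in low members and in F11r, Pard6b and Spint2.

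Cdh1 and Epcam make up the adherens subgroup of the list. Cdh1, the cadherin of epithelial adherens junctions, read 11.56 and 11.48 on the WT arrays, 11.56 on the array labelled replicate 1, 11.10 on replicate 2 and 10.70 on replicate 3. Replicates 2 and 3 were thus at 74.7% and 56.6% of the WT mean, below both WT arrays. The difference was -0.40 (SE 0.27) over all 5 arrays and -0.62 (SE 0.17) without the array labelled replicate 1, and did not pass in either (adjusted p = 0.748 and 0.102). Epcam, a cell surface molecule of epithelia and pluripotent cells that stabilises claudins, read 11.43 and 11.49 in WT and 11.47 on the array labelled replicate 1, then 10.38 on replicate 2 and 10.32 on replicate 3. It fell by 1.11 (SE 0.05, log2, adjusted p = 0.0405, 5-array difference -0.73, SE 0.40), to 47.3% and 45.4% of WT.

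Tight junction genes held both the largest decrease of the list and some of its most level members. Of 13 genes, 6 fell, against 1.34% of all genes in the filtered comparison, and 0 rose, against 3.29%. For 10 genes replicates 2 and 3 were below both WT arrays, against 17.5% of all genes. The median difference was -0.51 over all 5 arrays and -0.73 without the array labelled replicate 1. Claudins are the strand-forming proteins that set what passes between cells. Cldn7 read 9.91 and 9.89 in WT and 9.84 on the array labelled replicate 1, then 7.60 on replicate 2 and 7.51 on replicate 3. The last arrays were at 20.3% and 19% of the WT mean, and the gene was 5.09-fold lower (difference -2.35, SE 0.05, adjusted p = 0.0243), the difference of rank 5 from the lowest among all 18193 genes. With all 5 arrays the mutant mean was 8.32 ± 1.32 (SD, n = 3) against 9.90 ± 0.01 (SD, n = 2) in WT, a difference of -1.59 with an SE of 0.82 (adjusted p = 0.748).

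Cldn6, a claudin of embryonic epithelia, read 8.88 and 8.89 in WT, where the array labelled replicate 1 gave 8.72, against 7.61 on replicate 2 and 7.10 on replicate 3. It was 2.88-fold lower (difference -1.53, SE 0.21, adjusted p = 0.047, 5-array difference -1.07, SE 0.51), and its replicates 2 and 3 stood further apart than those of Cldn7. Cldn3, a barrier-forming claudin, read 7.05 and 6.91 in WT and 6.89 on the array labelled replicate 1, then 6.34 on replicate 2 and 6.17 on replicate 3. It fell by 0.73 (SE 0.10, adjusted p = 0.0493, 5-array difference -0.51, SE 0.24). Cldn4, a claudin of similar barrier function, read 9.40 and 9.28 in WT and 9.37 on the array labelled replicate 1, then 9.02 on replicate 2 and 8.83 on replicate 3. Its difference of -0.42 (SE 0.10) did not pass (adjusted p = 0.0949, 5-array difference -0.27, SE 0.18), although both arrays lay below both WT arrays. Cldn1 was dim, between 3.82 and 4.13 on every array, with overlapping groups.

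Of the 3 members of the occludin family, which share a MARVEL membrane domain, Ocln fell, and the other two were below WT on replicates 2 and 3 without passing. Ocln, occludin itself, read 6.93 and 6.92 in WT and 6.98 on the array labelled replicate 1, then 5.85 on replicate 2 and 5.60 on replicate 3, and was 2.29-fold lower (difference -1.20, SE 0.10, adjusted p = 0.042, 5-array difference -0.78, SE 0.46). Marveld3 read 6.27 and 6.65 in WT and 6.36 on the array labelled replicate 1, then 5.19 on replicate 2 and 5.45 on replicate 3. Its difference of -1.14 (SE 0.19) missed the threshold (adjusted p = 0.0534, 5-array difference -0.79, SE 0.40). Marveld2, the tricellulin found where 3 cells meet, read 6.22 and 5.90 in WT and 5.66 on the array labelled replicate 1, then 5.08 on replicate 2 and 5.47 on replicate 3. It was the member on which the array labelled replicate 1 was furthest from WT, by -0.40 and about as far as from replicates 2 and 3, and its difference of -0.79 without that array did not pass (adjusted p = 0.0931, 5-array difference -0.66, SE 0.21). Lsr, which recruits tricellulin to those corners, read 8.38 and 8.44 in WT and 8.35 on the array labelled replicate 1, then 7.47 on replicate 2 and 7.59 on replicate 3, a fall of 0.88 (SE 0.07, adjusted p = 0.042, 5-array difference -0.61, SE 0.30).

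Among plaque and adhesion proteins of the tight junction Cgn fell, and Tjp1, Tjp3 and F11r did not pass. Tjp1, the scaffold ZO-1, read 10.73 and 10.67 in WT and 10.68 on the array labelled replicate 1, 10.90 on replicate 2 and 10.64 on replicate 3, with replicates 2 and 3 on either side of WT. Its difference was 0.07 with an SE of 0.11 (adjusted p = 0.708, 5-array difference 0.04, SE 0.10). Tjp3, the related scaffold ZO-3, read 6.31 and 6.10 in WT and 5.98 on the array labelled replicate 1, then 5.65 on replicate 2 and 5.52 on replicate 3, a difference of -0.62 (SE 0.11, adjusted p = 0.0607, 5-array difference -0.48, SE 0.17). Cgn, cingulin, which links the plaque to actomyosin, read 7.62 on both WT arrays, 7.63 on the array labelled replicate 1, 7.04 on replicate 2 and 6.91 on replicate 3, and fell by 0.65 (SE 0.07, adjusted p = 0.0466, 5-array difference -0.43, SE 0.24). F11r, the junctional adhesion molecule JAM-A, read 9.71 and 9.68 in WT and 9.71 on the array labelled replicate 1, then 9.86 on replicate 2 and 9.73 on replicate 3. Those arrays were slightly above both WT arrays, and the difference of 0.10 (SE 0.06) did not pass (adjusted p = 0.459, 5-array difference 0.07, SE 0.07).

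**Figure D3:**
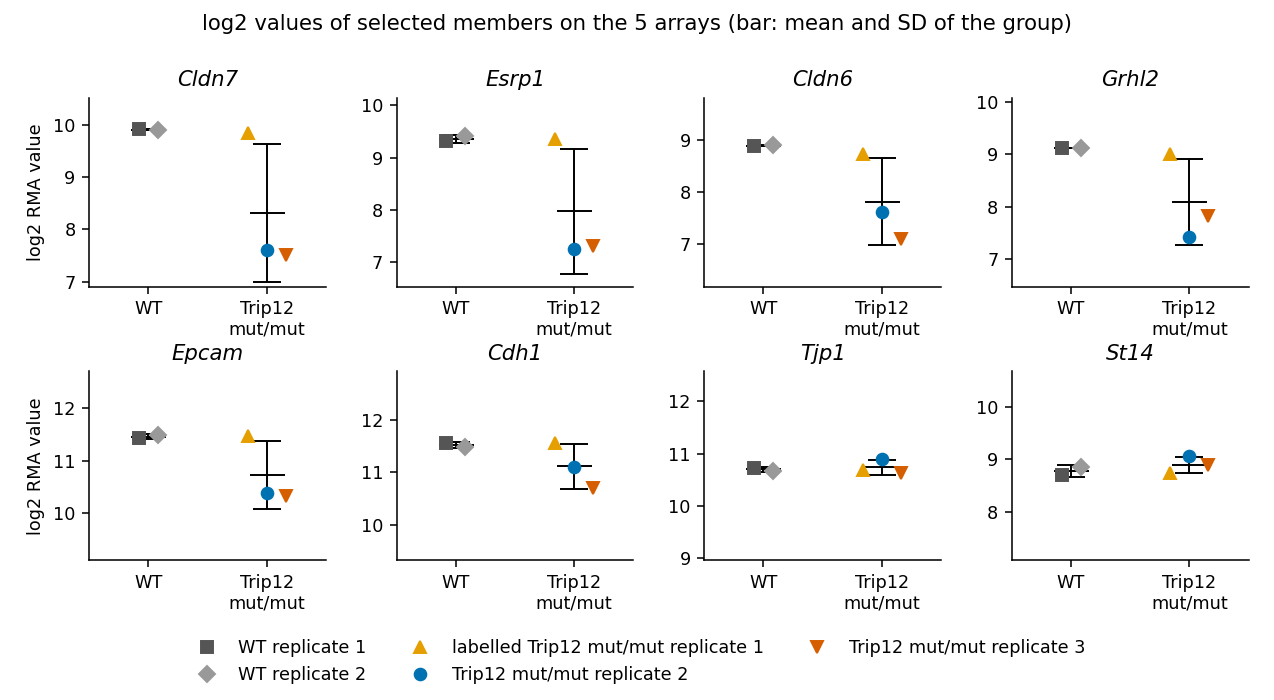
log2 RMA values of 8 members on the 2 WT and 3 Trip12 mut/mut arrays; horizontal bars are group means and whiskers are SDs over the arrays of a group. All panels span the same log2 range; for Cldn7, Esrp1, Cldn6, Grhl2 and Epcam replicates 2 and 3 lie more than 1 below WT, and Tjp1 and St14 stay near it.

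Of the polarity genes Crb3 and Pard6b, the first was lower on replicates 2 and 3. Crb3, a Crumbs protein of the apical membrane, read 7.35 and 7.38 in WT and 7.43 on the array labelled replicate 1, then 6.83 on replicate 2 and 6.51 on replicate 3. The difference of -0.70 (SE 0.13) did not pass (adjusted p = 0.0658, 5-array difference -0.44, SE 0.29). Pard6b, an adaptor that ties Cdc42 to atypical protein kinase C, read between 7.27 and 7.43 on all arrays, with a difference of -0.07 (SE 0.07, adjusted p = 0.598, 5-array difference -0.05, SE 0.07).

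Desmosome genes showed smaller differences, and 0 of 6 passed, against 1.34% of all genes called lower and 3.29% higher. The subgroup median was -0.25 over all 5 arrays and -0.37 without the array labelled replicate 1. For 4 of 6 replicates 2 and 3 were below both WT arrays, against 17.5% of all genes. Dsp, desmoplakin, which anchors keratin filaments, read 9.95 and 9.85 in WT and 9.89 on the array labelled replicate 1, then 9.29 on replicate 2 and 9.00 on replicate 3 (difference -0.76, SE 0.13, adjusted p = 0.0578, 5-array difference -0.51, SE 0.29). Dsg2, a desmosomal cadherin, read 9.45 and 9.33 in WT and 9.44 on the array labelled replicate 1, 9.09 on replicate 2 and 8.60 on replicate 3 (difference -0.55, SE 0.20, adjusted p = 0.169, 5-array difference -0.35, SE 0.27). Its 2 mutant values lay far apart, at 81.1% and 57.6% of WT. Pkp2, a plakophilin of the desmosomal plaque, read 10.49 on each of the WT arrays, 10.49 also on the array labelled replicate 1, 10.08 on replicate 2 and 9.90 on replicate 3 (difference -0.49, SE 0.08, adjusted p = 0.0627, 5-array difference -0.33, SE 0.19). Dsc2, the other desmosomal cadherin, differed by -0.24 (SE 0.08, adjusted p = 0.192, 5-array difference -0.18, SE 0.09). Jup, plakoglobin, which serves desmosomes and adherens junctions alike, read between 7.22 and 7.25 on every array, and Pkp3 between 6.98 and 7.16. For both the groups overlapped.

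The membrane proteases and their inhibitors had the subgroup median nearest to 0, -0.07 over all 5 arrays and -0.09 without the array labelled replicate 1. Without replicate 3 in place of it the median turned to 0.021. Prss8, prostasin, a membrane-anchored serine protease of epithelia, was the 1 of 4 that fell, against 1.34% of all genes. Its high WT values brought it through the dim filter, on which this call depends. It read 6.39 and 6.35 in WT and 6.42 on the array labelled replicate 1, then 5.66 on replicate 2 and 5.44 on replicate 3 (difference -0.82, SE 0.10, adjusted p = 0.0467, 5-array difference -0.53, SE 0.32). St14, matriptase, which acts in a cascade with prostasin, read 8.70 and 8.86 in WT and 8.75 on the array labelled replicate 1, then 9.06 on replicate 2 and 8.89 on replicate 3. Both were above WT, by 0.19 on average (SE 0.10, adjusted p = 0.319, 5-array difference 0.12, SE 0.12). Their inhibitors Spint1 and Spint2 differed by -0.20 (SE 0.15, adjusted p = 0.451, 5-array difference -0.13) and 0.02 (SE 0.11, adjusted p = 0.912, 5-array difference -0.0009). Spint1 was at 99.6% of WT on replicate 2 and 76.6% on replicate 3, so that its place below WT rests on replicate 3.

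The regulators had a median of -0.86 over all 5 arrays and -1.26 without the array labelled replicate 1, and 3 of 4 fell, against 1.34% of all genes. With the mean of all probe sets of a gene in place of the probe set with the highest mean, their 5-array median was -0.32. Esrp1, an RNA-binding protein that sets epithelial exon choice, read 9.31 and 9.41 in WT and 9.35 on the array labelled replicate 1, then 7.26 on replicate 2 and 7.30 on replicate 3. The last arrays were at 23.4% and 24.1% of the WT mean. It was 4.22-fold lower (difference -2.08, SE 0.06, adjusted p = 0.0243), and over all 5 arrays the difference was -1.39 with an SE of 0.74 (adjusted p = 0.748). Esrp2, its paralogue, read 7.13 and 7.36 in WT and 7.23 on the array labelled replicate 1, then 6.15 on replicate 2 and 6.29 on replicate 3, and was 2.03-fold lower (difference -1.02, SE 0.11, adjusted p = 0.0425, 5-array difference -0.69, SE 0.37).

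Grhl2, a Grainyhead-like transcription factor that activates Cdh1 and claudin genes in epithelia, read 9.12 on both WT arrays, 9.00 on the array labelled replicate 1, 7.42 on replicate 2 and 7.81 on replicate 3. It was at 30.8% and 40.5% of WT and 2.83-fold lower (difference -1.50, SE 0.16, adjusted p = 0.042, 5-array difference -1.04, SE 0.51). Ovol1, a zinc finger repressor of mesenchymal genes, was dim at 4.70 on 4 arrays and 4.91 on replicate 3, and was not in the filtered comparison. Its 2 probe sets differed in sign, 0.11 and -0.28, so no direction is given for it.

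Of the trafficking genes 1 of 2 fell, against 1.34% of all genes. Ap1m2, the mu subunit of the AP-1B adaptor that sorts proteins to the basolateral membrane of epithelia, read 8.69 and 8.74 in WT and 8.81 on the array labelled replicate 1, then 8.00 on replicate 2 and 8.02 on replicate 3, a fall of 0.71 (SE 0.04, adjusted p = 0.042, 5-array difference -0.44, SE 0.29). Rab25, an epithelial Rab11-type GTPase of recycling endosomes, read 6.96 and 7.01 in WT and 6.92 on the array labelled replicate 1, 5.58 on replicate 2 and 6.12 on replicate 3. Its difference of -1.14 (SE 0.22) did not pass (adjusted p = 0.0607, 5-array difference -0.78, SE 0.42), with replicates 2 and 3 at 37.6% and 54.7% of WT. The promoters of both genes are among those printed above.

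At least 2-fold lower without the array labelled replicate 1 were 9 of 33 members, against 0.544% of all genes, and over all 5 arrays 4 members, against 0.181%. The 9 were Cldn7, Esrp1, Cldn6, Grhl2, Ocln, Marveld3, Rab25, Epcam and Esrp2, and the 4 were Cldn7, Esrp1, Cldn6 and Grhl2. Replicate 3 was below replicate 2 for 16 of the 24 members without overlap, and above it for 8 (Grhl2, Esrp1, Esrp2, Rab25, Ap1m2, Lsr, Marveld2 and Marveld3). The regulators that fell were thus lower on replicate 2, but for Esrp1 and Esrp2 this gap was smaller than between their WT arrays. The same held for Ap1m2 and Marveld3 among the 8. How often either order occurs over all genes was not counted, so the split only describes these members. The desmosome genes Dsp, Dsg2, Dsc2 and Pkp2 were lower on replicate 3 on their probe sets with the highest mean. Other probe sets of Pkp2 and Dsg2 that were not dim went both ways, so no order is given for the subgroup. Another Pkp2 probe set read 8.63 on replicate 2 and 9.11 on replicate 3, and another of Dsg2 read 6.83 and 6.87.

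Most second probe sets with signal were also below WT on replicates 2 and 3. Of the members 19 had more than 1 probe set, 34 other probe sets in all. On 13 of these at least 2 of the 5 arrays were above 5.52, the median of all probe sets. Of the 13 there were 12 with replicates 2 and 3 below both WT arrays, against 17.5% of all genes. All 3 mutant arrays were below for 6 of the 13, against 6.29% of all genes. For 11 of the 12 the probe set with the highest mean was below WT as well. The exception was Spint2, whose probe sets differed in sign, at 0.02 and -0.03, so that no direction is given for it. On replicates 2 and 3 the second Ocln probe set was 2.18-fold lower (5-array difference -0.79), that of Epcam 1.75-fold (-0.54), and those of Cldn3 2.04-fold and 2.2-fold (-0.71 and -0.66), more than the 1.65-fold of the probe set with the highest mean. On replicates 2 and 3 the second Ocln probe set read 4.76 and 4.95, and the 2.2-fold one of Cldn3 5.32 and 5.35, all under 5.52. Both count among the 13 only through the other arrays, so their place among the 12 depends on that cut. The 2 other Crb3 probe sets were 2.14-fold and 1.63-fold lower (5-array differences -0.80 and -0.52). Of the 21 dim probe sets 4 were below WT without overlap on replicates 2 and 3, against 17.5% of all genes. The dim ones of Grhl2, Lsr and Marveld3 showed at most a 1.2-fold difference. Cldn7, Cldn6, Cdh1 and Esrp1 had 1 probe set each, so theirs has no such check.

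**Figure D4:**
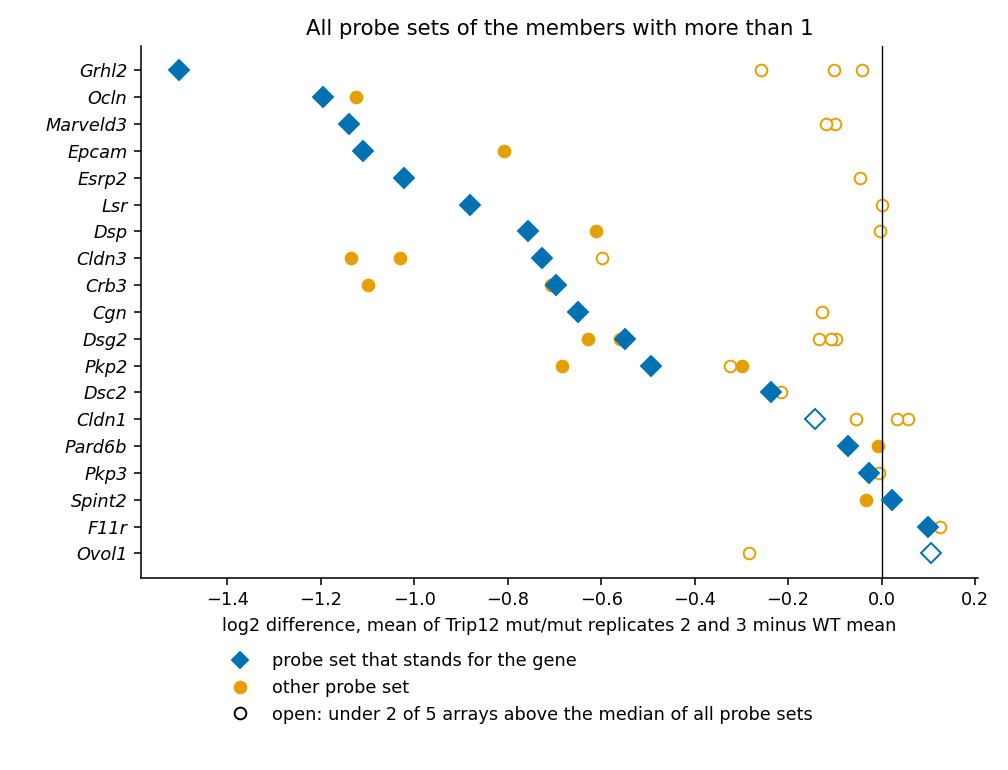
Every probe set of the 19 members with more than 1, as the mean of Trip12 mut/mut replicates 2 and 3 minus the WT mean on the log2 scale. Diamonds stand for the gene in the text, circles are the other probe sets and open symbols are dim. Of the 13 other probe sets that are not dim, 12 have replicates 2 and 3 below both WT arrays, against 17.5% of all genes. The second Ocln probe set and 1 of Cldn3 are not dim only through the other arrays.

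Other junction and epithelial genes, listed by role with earlier results known, mostly did not follow. Of 116 measured genes 69 were bright enough to enter the filtered comparison. There 4 fell, against 1.34% of all genes, and 1 rose, against 3.29%. The median difference over the 116 was 0.0022 over all 5 arrays and -0.0035 without the array labelled replicate 1, and over all 5 arrays 0 passed. Those that fell were Krt8, Krt18 and Krt7, keratins of simple epithelia, and Hpn, the membrane protease hepsin. Krt8 was 4.12-fold lower (adjusted p = 0.042, 5-array difference -1.37) and Krt18 2.43-fold (adjusted p = 0.042, 5-array difference -0.84), while the related Krt19 read 9.41 and 9.57 in WT and 9.42 on the array labelled replicate 1, then 9.86 on replicate 2 and 9.77 on replicate 3. Hpn read 6.15 and 6.20 in WT and 6.25 on the array labelled replicate 1, then 5.60 on replicate 2 and 5.58 on replicate 3 (difference -0.58, SE 0.05, adjusted p = 0.0428, 5-array difference -0.36). Perp, a desmosome protein that is also a p53 target, rose by 0.85 (SE 0.07, adjusted p = 0.042, 5-array difference 0.53), against the direction of the desmosome genes above.

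By role, 10 of 15 other adherens genes, 9 of 23 other tight junction genes and 15 of 19 other polarity genes entered the filtered comparison. Of these 0 passed in either direction, against 1.34% of all genes called lower and 3.29% higher. With lists this short, 0 here and in the lists below says little about them. The medians of the 3 lists, with dim genes included, were 0.07, -0.01 and 0.0, and over all 5 arrays 0.06, 0.01 and 0.0048. Of 14 other trafficking genes 9 were tested there, and of 11 other epithelial transcription or RNA-binding factors 7, and 0 passed in either list. Of 10 genes known to be spliced by Esrp proteins, among them Fgfr2 and Cd44, all were tested and 0 passed, and exon use was not measured by these probe sets. Among differences that did not pass, named after their values were seen, were -0.78 for Cxadr, the coxsackie and adenovirus receptor at tight junctions (SE 0.12, adjusted p = 0.053, 5-array difference -0.56), and 1.03 for Cdh11, a mesenchymal cadherin (SE 0.19, adjusted p = 0.0584, 5-array difference 0.70). Cdh2, the cadherin of mesenchymal and neural cells, read 9.06 and 8.94 in WT and 9.09 on the array labelled replicate 1, then 9.71 on replicate 2 and 9.33 on replicate 3 (difference 0.52, SE 0.16, adjusted p = 0.133, 5-array difference 0.38).

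Of 13 mesenchymal transcription factors and TGF-beta ligands, 11 entered the filtered comparison and 2 rose, against 3.29% of all genes. On replicates 2 and 3, 10 of 13 had both arrays above both WT arrays, against 26.7% of all genes, and over all 5 arrays 0 of 13, against 5.73%. The median difference was 0.31 over all 5 arrays and 0.45 without the array labelled replicate 1. Twist2 rose by 0.90 (SE 0.04, adjusted p = 0.042, 5-array difference 0.60) and Prrx1 by 0.66 (SE 0.05, adjusted p = 0.042, 5-array difference 0.43). Zeb2 read 8.67 and 8.62 in WT and 8.47 on the array labelled replicate 1, then 9.52 on replicate 2 and 9.17 on replicate 3 (difference 0.70, SE 0.14, adjusted p = 0.0703, 5-array difference 0.41). Snai2 differed by 0.64 (adjusted p = 0.0607), Twist1 by 0.60 (adjusted p = 0.0977), Snai1 by 0.45 (adjusted p = 0.0725) and Zeb1 by 0.37 (adjusted p = 0.0906), and none of these 4 passed.

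Fibroblast markers were examined because feeder cells are fibroblasts, which express Twist1, Twist2, Prrx1 and Cdh11 as well. The mean of 30 such markers was 10.31 and 10.32 on the WT arrays, 10.29 on the array labelled replicate 1, 10.75 on replicate 2 and 10.73 on replicate 3. Of the 30, 22 had both of those arrays above both WT arrays, against 26.7% of all genes, and 1 had all 3 mutant arrays above, against 5.73%. In the filtered comparison 8 rose, against 3.29%, and 1, Cnn1, fell, against 1.34%. Twist1, Twist2 and Prrx1 are on this list too, so the 8 include Twist2 and Prrx1, the 2 mesenchymal factors that rose above. The median difference was 0.34 over all 5 arrays and 0.53 without the array labelled replicate 1. Collagen genes Col1a2, Col5a1 and Col5a2 were 1.52-fold, 1.69-fold and 1.63-fold higher. Stem cell markers averaged 11.69, 11.70, 11.68, 11.55 and 11.63 on the 5 arrays in the same order, with a median difference of -0.12 without the array labelled replicate 1. Of these 8 markers, 1, Utf1, fell, by 0.80, against 1.34% of all genes. Replicates 2 and 3 were below both WT arrays for 4 of the 8, against 17.5% of all genes, and above both for 2, against 26.7%. The markers of trophoblast and of primitive endoderm had medians of -0.11 and 0.01 without the array labelled replicate 1. Their differences ran from -0.78 to 0.67 and from -0.26 to 0.57. Cdx2 and Gata4, which define those lineages, were dim, but 3 of 6 trophoblast and 4 of 6 primitive endoderm markers entered the filtered comparison. There 1 trophoblast marker fell, against 1.34% of all genes, and 0 rose, against 3.29%, while 0 primitive endoderm markers passed. The part of a changed share of feeder cells in the epithelial and mesenchymal differences was not tested.

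**Figure D5:**
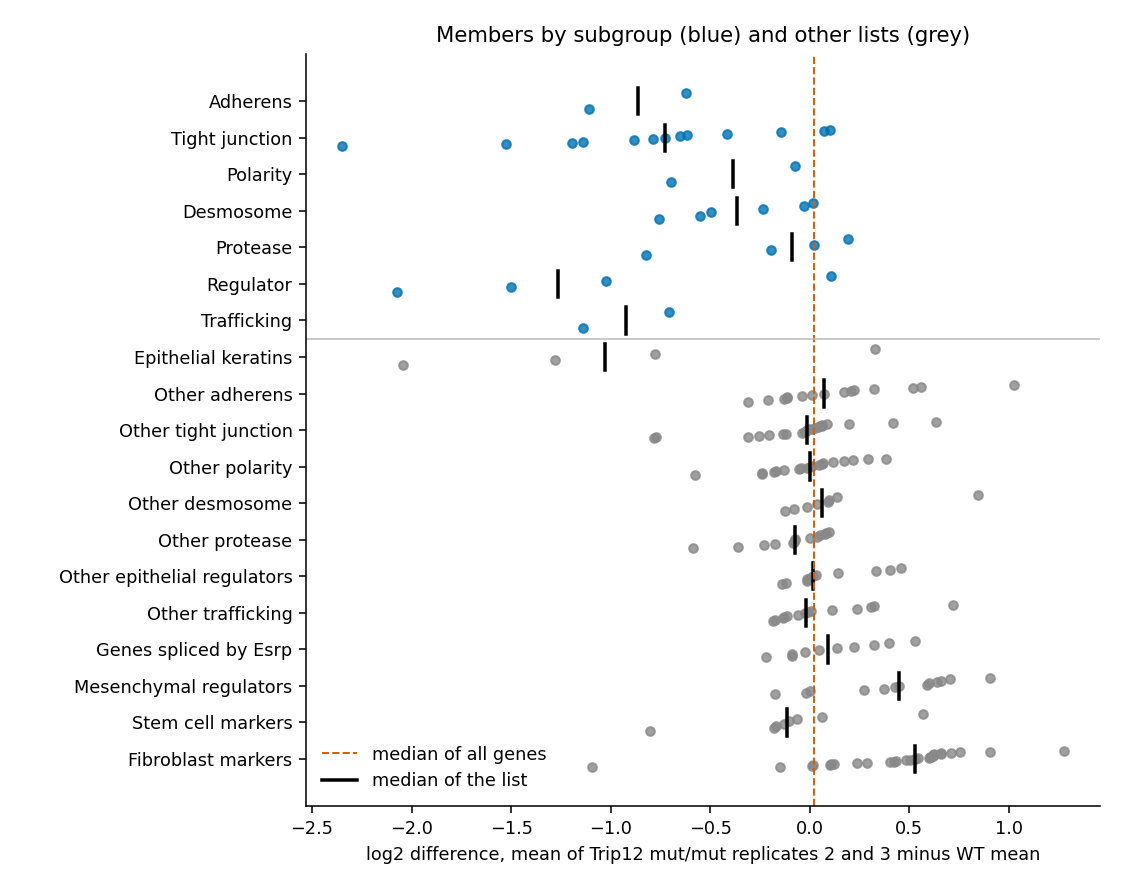
Each point is 1 gene, placed at the mean of Trip12 mut/mut replicates 2 and 3 minus the WT mean on the log2 scale; the array labelled replicate 1 is left out. Blue points are the 33 members by subgroup and grey points are other lists, black bars are medians of a list, and the dashed line is the median of all genes at 0.02. The medians of the member subgroups and the keratins lie to its left, and those of mesenchymal regulators and fibroblast markers to its right. Some other lists also lie to its left, among them stem cell markers (-0.12) and other protease genes (-0.07), close to the protease members (-0.09).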

How the data were processed

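The deposited values are log2 values from Affymetrix arrays, 1 per probe set and array, made by the authors with RMA, per the submitters' processing notes. No RMA version is named there. The 5 array medians ran from 5.51 to 5.55, and a change common to all transcripts would not be visible; the small number of arrays limits the precision. Of 45101 rows, 64 controls were left out. Of the other 45037 probe sets, 34945 had 1 gene symbol, 932 several and 9160 none; symbols were updated by gene number through RefSeq names of GRCm38.p6, which matched 34741. A gene was represented by its probe set with the highest mean, giving 18193 genes.

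The groups were tested two-sided with limma 3.58.1 (lmFit and eBayes; R 4.3.3) on all genes, with no term besides genotype, with Benjamini-Hochberg adjustment over all genes and a threshold of 0.05. The filter on dim probe sets kept genes above the median of all probe sets (5.52) on at least 2 of the arrays fitted. The members and lists were chosen with earlier results of these data known. All members are named; other lists are given by counts, and by the genes that passed with the filter when mutant replicate 1 was left out; a few are named after their values were seen. Of 137 other listed genes 129 had a probe set. The procedure was also run on simulated arrays, in which every mutant array carried the placed changes. That run does not bear on a fit in which a mutant array stands with WT. Alternatives were quantile normalisation, the dim filter, a variance trend with robust estimation, a replicate block, each array left out, and 2 other ways to represent a gene. Replicate numbers are not said to pair arrays, and same-numbered arrays deviated together with r = -0.05 and -0.08 for numbers 1 and 2. Plots used matplotlib 3.10.9 (Python 3.11.15).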

Additional observations from a re-analysis of the deposited data

How the results depend on the processing

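limma called 0 genes and 0 members over all 5 arrays and under every alternative that changed 1 choice. Without a WT array the other is assumed to vary like the mutant arrays. With the array labelled Trip12 mut/mut replicate 1 left out and the filter on dim probe sets together, 156 genes were called lower and 383 higher, 12 members were called lower, and of the other epithelial and mesenchymal genes 4 were called lower and 3 higher. The median of all genes was then 0.046 against 0.019; the filter leaves 11626 genes. The replicate block called 0 genes. Subgroup medians stayed negative under every alternative except for the protease genes, at 0.021 with the replicate block and without mutant replicate 3. With the mean of all probe sets of a gene the 5-array median of the regulators was -0.32, against -0.86, and that of the tight junction genes -0.30, against -0.51; the order of the subgroup medians is then another. Signs turned only for members near 0. With the replicate block Cldn1 (0.017), Pard6b (0.0069) and Spint2 (0.050) became positive, with quantile normalisation Jup became -0.0030, and with replicate 1 left out and the filter Spint2 was 0.021. Ovol1 was -0.081 with the mean of its probe sets and -0.23 with the probe set of largest SD. Leaving out 1 array in turn gave -0.15 to 0.042 for Cldn1, -0.041 to 0.090 for Tjp1, -0.072 to 0.0069 for Pard6b, -0.058 to 0.031 for Pkp3 and -0.074 to 0.050 for Spint2.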
